A study of Arabidopsis thaliana with 6 samples.

Results

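The passage of Col-0 explants of Arabidopsis thaliana into a 10 d embryogenic culture was followed here over transcription factor (TF) genes. Each of the 1880 deposited rows holds 1 TF gene code. There are 1872 different codes, so a few stand in more than 1 row. Of the rows, 1684 gave a PCR threshold cycle (Ct) below 35 in the explants, at 10 d, or in both. These 1684 rows are the ones described. Ct is the PCR cycle at which the product crosses a fixed brightness, so a Ct lower by 1 stands for a 2-fold higher transcript level at full PCR efficiency. The change of a row is its Ct at 0 d minus its Ct at 10 d, less the median of that difference over the 376 rows of its plate, and is given on the log2 scale. A row without a Ct was set to 40, the last cycle. A positive change is therefore a higher level at 10 d relative to the median row of the plate, and no statement on the total amount of TF transcripts can be drawn from it.

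The explants were freshly isolated immature zygotic embryos of wild-type Col-0 at the late cotyledonary stage, described by their labels as competent for the embryogenic transition. The culture had spent 10 d on solid medium with 5 µM of 2,4-D, a synthetic auxin, and was sampled when somatic embryos form. Values at 5 d of the same Col-0 culture and of the tanmei (tan1-2) mutant, as fresh explants at 0 d and after 5 and 10 d on the same medium, are set beside them. The mutant carries a lesion in a gene for a WD repeat protein and forms a callus without somatic embryos. Each of the 6 groups is 1 mean per gene, which the authors took over 3 replicates. No spread between replicates could be computed, so no test was run and no p-value is given, and changes are sorted only by whether they reach 2-fold or 10-fold. Every sample was a whole explant or culture, in which fewer cells of a type and less RNA per cell cannot be told apart, and the 10 d culture still holds tissue of the original explant.

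In somatic embryogenesis, cells of a differentiated or zygotic tissue are brought by auxin and stress to start the embryo programme anew. The programme rests on a small set of master regulators, among them the B3 domain proteins ABI3, FUS3 and LEC2, which drive embryo identity and the storage of oil and protein. The AP2/EREBP family is named for the flower gene AP2 and for proteins that bind ethylene response elements. It holds the PLETHORA genes of root and embryo stem cells and the large ERF and DREB groups that respond to ethylene, jasmonate, wounding, cold and drought.

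Names of single genes could be used only in AP2/EREBP and ABI3/VP1. The deposited profiles of 653 rows could be linked by order to a supplementary table of the study, and 63.1% of these rows carried the same family label in both tables, yet only 60 carried the same gene code. Of 66 linked AP2/EREBP rows, all 66 had the same family and 58 the same code. Both linked ABI3/VP1 rows matched in family and code. In AP2/EREBP, AT5G25190 was the last code on chromosome 5 with a matching profile. The 22 rows whose codes follow it were treated as out of step with their codes. Those in the study's table had another profile there, and the others could not be checked. Of these 22 rows, 20 passed the filter. They are counted below and not named. One more row with another profile in the study's table was also counted only. This leaves 116 AP2/EREBP rows and all 13 ABI3/VP1 rows to be named, and 75 of the 146 AP2/EREBP codes and 11 of the 13 ABI3/VP1 codes were not in the study's table, so their match was not checked directly. RRTF1 and LEP also had another profile there, and were named as exceptions after their values had been seen. In Col-0, RRTF1 had a Ct of 40 at 5 d and LEP a Ct of 37.3 in explants. The row that was counted only had a Ct of 37.2 in explants. Whether late cycles account for these other profiles was not tested.

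The Ct at 10 d had to be compared plate by plate. The median Ct difference between explants and 10 d culture was 1.26 cycles on the first plate, 0.24, -0.04 and 0.13 on the next 3, and 1.29 on the last. All AP2/EREBP and ABI3/VP1 rows stood on the first plate. Their changes would each be 1.26 higher without centring and 0.72 higher if all 5 plates were centred together. Below, higher, lower and within 2-fold refer to centring by plate unless another centring is named.

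Levels differed by at least 2-fold between explants and 10 d culture in most rows. Of the 1684 rows, 594 (35.3%) were at least 2-fold higher at 10 d and 474 (28.1%) at least 2-fold lower, while 616 (36.6%) stayed within 2-fold. At least 10-fold differences were found in 280 rows (16.6%) with the higher level at 10 d and in 114 rows (6.77%) with the higher level in explants. The median change was 0.05 and the interquartile range ran from -1.22 to 2.04. Large differences towards 10 d thus outnumbered large differences towards the explants, although the middle of the distribution lay near 0 by construction. Over the rows with a Ct below 35 in both columns, 457 were at least 2-fold higher and 427 at least 2-fold lower. The 10-fold counts were not made over these rows.

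A Ct below 35 was reached at 10 d but not in explants by 148 rows, and in explants but not at 10 d by 51. No Ct was read in explants, or a Ct of 40, for 45 of the 1684 rows, against 11 at 10 d. For these rows the change is set by the last cycle. At the edge of the filter, 33 rows had their lower Ct within 0.5 cycles below 35, the highest at 34.998, and 26 rows just outside lay within 0.5 cycles above it, the lowest at 35.011.

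The spread and the direction of the change differed between levels. To keep out rows that passed the filter through 1 column alone, levels were compared over the 1485 rows with a Ct below 35 in both columns, a choice made after the values were seen. Among the 113 of these rows with a mean Ct of the pair below 22, the most abundant transcripts, 11.5% were at least 2-fold higher at 10 d and 44.2% lower, with a median of -0.71. Among the 474 rows from 22 to 25 the shares were 16.9% and 30.8%. They were 34.5% and 29.4% among the 487 rows from 25 to 28 and 49.2% and 22.0% among the 246 rows from 28 to 31. Among the 165 rows from 31 up, 45.5% were higher, 20.6% were lower and the median was 0.65. Over all 359 rows of that last class, which include those that passed through 1 column, the share higher was 58.2%. The part of PCR noise at low levels in these differences was not tested.

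**Figure D1:**
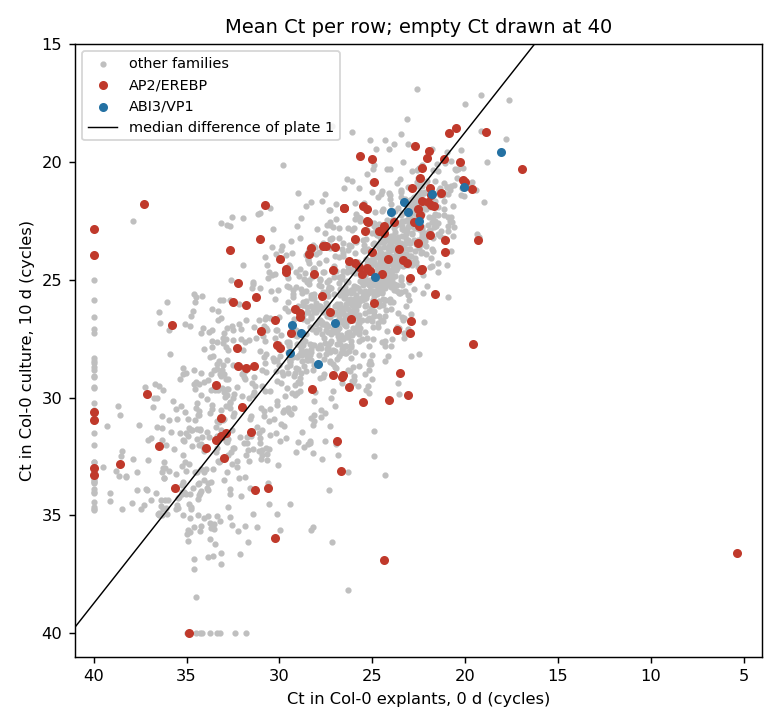
Each point is 1 of the 1684 rows, with its mean Ct in Col-0 explants (horizontal axis, cycles) and in Col-0 culture at 10 d (vertical axis, cycles), both reversed so that higher levels lie to the right and to the top. The line is the median difference of the first plate, 1.26 cycles, and the AP2/EREBP row far to the right at a Ct of 5.36 in explants is HRD.

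One value stood outside the range of all others. HRD (AT2G36450) had a mean Ct of 5.36 in Col-0 explants, and the next lowest Ct in that column was 16.9. Its Ct was 36.6 at 10 d in Col-0 and 37.2 and 34.8 in tanmei at 0 and 10 d. The resulting change of -32.52 is counted among the lower rows and is not described further.

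Single families were compared only where their labels could be relied on. Of 38 families with at least 10 rows past the filter, 10 are described: 9 with at least 10 linked rows of which at least 80% had the same label in the study's table, a limit chosen after the labels had been compared, and ABI3/VP1 with its 2 linked rows. They hold 869 of the 1684 rows. The other 28 families, whose medians ran from -1.42 to 3.84, are not described because their labels did not match or too few rows were linked.

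MYB, MADS and NAC had the highest medians under centring by plate, an order that did not hold otherwise. With all plates centred together AP2/EREBP (1.10) and NAC (1.09) stood above MYB (0.21) and MADS (0.205), and with a Ct below 35 in both columns MYB (0.105) and NAC (0.114) lay near 0. MYB proteins control phenylpropanoid synthesis, cell shape and the cell cycle, and 62 of 136 MYB rows (45.6%) were at least 2-fold higher and 31 (22.8%) lower, beside 35.3% and 28.1% of all rows, with a median of 0.62. MADS proteins specify floral organs and flowering time, and their median was 0.62, from 30 of 73 rows (41.1%) that were higher and 18 (24.7%) that were lower. That median was -0.09 when a Ct below 35 was required in both columns. NAC proteins act in boundary formation, cell wall synthesis and senescence, and 44 of 96 rows (45.8%) were higher and 23 (24.0%) lower around a median of 0.55, beside 0.05 for all rows. The single NAC row with the largest change stood 14.07 above its explant level.

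Zinc finger and helix-loop-helix families lay near all rows, of which 35.3% were higher and 28.1% lower. In C2H2, the median was 0.26, and 47 of 125 rows were higher against 29 that were lower. In bHLH, which holds regulators of light, hormone and epidermal cell fate responses, 51 of 144 rows were higher and 42 lower, the median was 0.23 and changes ran from -13.14 to 14.72. In DOF, 10 of 31 rows were higher and 9 lower around a median of 0.12. Homeobox (HB) rows were split evenly, with 31 of 87 higher and 31 lower around a median of -0.07.

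LOB domain genes, which mark organ boundaries and act in lateral root formation, had a median of -0.74. Of 27 LOB rows 9 were higher and 12 lower (35.3% and 28.1% of all rows), and the range from -7.09 to 12.87 was wide. Uncentred, the LOB median was 0.52, and with only rows below a Ct of 30 it was 2.57. In ABI3/VP1, 1 of 13 rows was higher and 6 (46.2%) lower, with a median of -0.86 that became 0.40 without centring. No row of ABI3/VP1 differed by 10-fold.

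**Figure D2:**
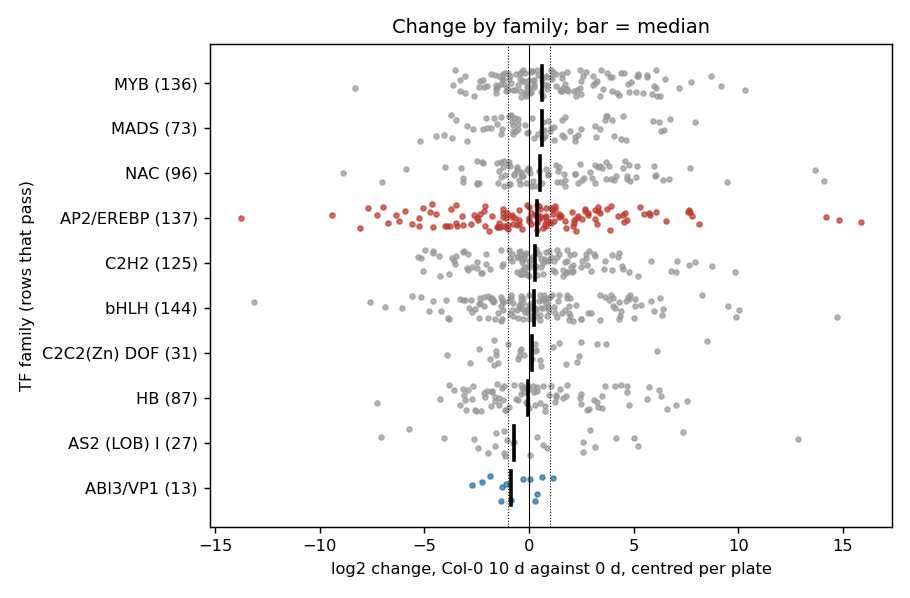
The log2 change from 0 d to 10 d in Col-0 (horizontal axis, centred per plate) is drawn for each row of the 10 families described, with the number of rows in brackets, a bar at the median and dotted lines at 2-fold. AP2/EREBP rows spread widely to both sides, with 53 higher and 50 lower of 137, and HRD at -32.52 lies outside the axis.

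AP2/EREBP rows took part in large differences in both directions. Of 137 rows, 53 (38.7%) were at least 2-fold higher at 10 d and 50 (36.5%) at least 2-fold lower, against 35.3% and 28.1% of all rows and 37.1% and 33.1% of the 353 rows of their own plate. At least 10-fold differences were found upward in 23 rows and downward in 26. The median was 0.38. Without the 22 rows treated as out of step with their codes, 47 rows were higher and 41 lower.

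The embryo regulators of the B3 class were present in explants and remained present at 10 d. ABI3 (AT3G24650), which drives seed maturation and desiccation tolerance, had a Ct of 18.1 in explants, 18.8 at 5 d and 19.6 at 10 d. This was a change of -2.74 relative to the median row. FUS3 (AT3G26790), a partner of ABI3 in embryo maturation, had a Ct of 20.1, 20.0 and 21.1, with a change of -2.26. Both were thus lower at 10 d than in explants, and lower than at 5 d. LEC2 (AT1G28300), which can induce somatic embryos when overexpressed, had a Ct of 28.9, 27.7 and 27.2, and its change of 0.36 stayed within 2-fold. That of LEC2 was 1.08 with all plates centred together and 1.62 without centring, at least 2-fold higher in both. The median of the 3 genes was -2.26, beside 0.05 for all rows. Without centring the median of the 3 genes was -0.99.

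In tanmei the same genes took another course. ABI3 had a Ct of 19.3 in tanmei explants and 31.03 at 10 d, a change of -11.11. FUS3 went from 18.3 to 28.2, a change of -9.32, and LEC2 from 26.9 to 33.6, a change of -6.09. The changes in Col-0 were thus 8.37, 7.07 and 6.45 above those in the mutant on the log2 scale. ABI4 (AT2G40220), an AP2/EREBP regulator of abscisic acid and sugar signals in seeds, had a Ct of 22.3 and 21.6 in Col-0 at 0 and 10 d and of 20.3 and 28.3 in tanmei. Its change was -0.58 in Col-0 and -7.36 in tanmei. WRI1 (AT3G54320), the activator of fatty acid synthesis in seeds, was lower at 10 d in both genotypes, by a change of -2.77 in Col-0 and -3.08 in tanmei. The labelled tissue therefore carried the embryo genes of the B3 class, with WRI1 at a Ct of 19.7 in Col-0 explants.

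The repressors of the same programme stayed within 2-fold under centring by plate. VAL1, VAL2 and VAL3, B3 proteins that silence the embryo regulators after germination, had changes of -0.86, 0.30 and 0.05. Without centring these were 0.40, 1.56 and 1.31, and VAL2 was 1.02 with all plates centred together. NGATHA genes act in leaf margins and the style of the flower. NGA2, NGA3 and NGA4 were lower at 10 d, with changes of -1.31, -1.11 and -1.88, and NGA1 had a change of -0.31. NGAL1 was lower with a change of -1.32. DPA4 (AT5G06250), a relative that limits leaf serration, was the only ABI3/VP1 row at least 2-fold higher, with a Ct of 29.3 in explants, 27.1 at 5 d and 26.9 at 10 d and a change of 1.14. In total 1 of 6 NGATHA and related genes was higher and 4 were lower (28.1% of all rows). Without centring NGA3 changed its sign to 0.16, and NGA2 and NGAL1 were -0.046 and -0.057. With all plates centred together NGA2, NGA3 and NGAL1 were -0.59, -0.38 and -0.60, within 2-fold.

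**Figure D3:**
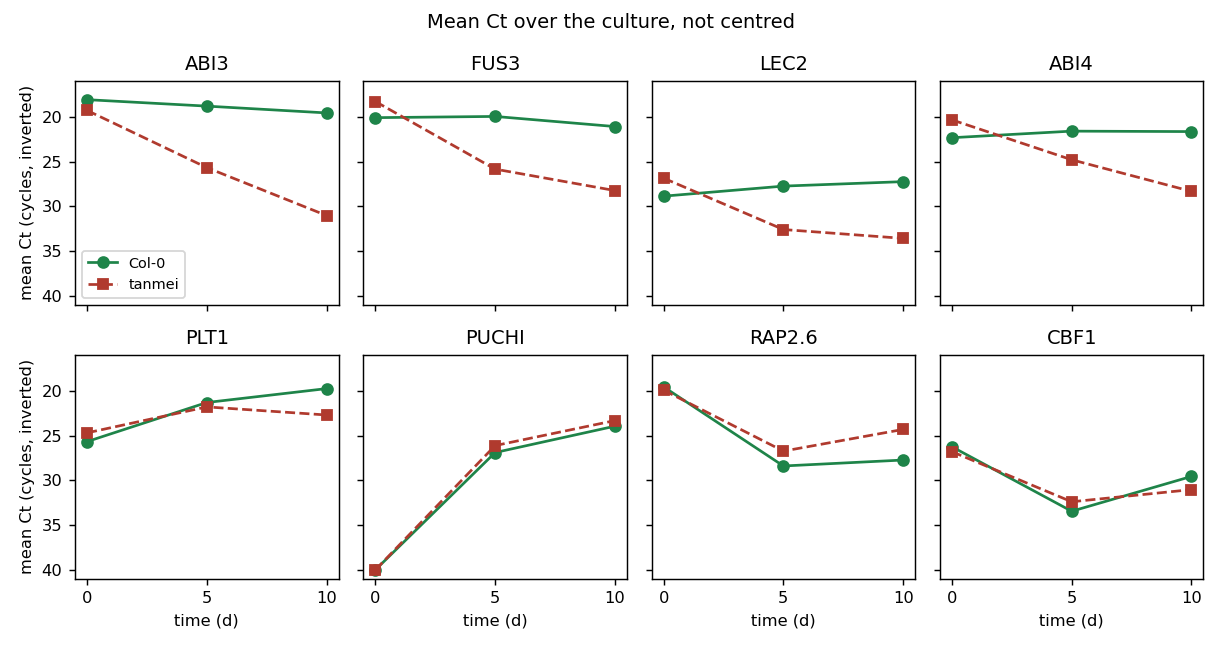
Mean Ct (vertical axis, cycles, reversed, not centred) is drawn against time in culture (horizontal axis, days) for 8 genes, with circles for Col-0 and squares for tanmei and 1 mean per point. ABI3, FUS3, LEC2 and ABI4 stay within 2 cycles in Col-0 and reach a Ct of 28.2 or above in tanmei at 10 d, while PUCHI follows the same course in both.

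Genes of the root stem cell niche were higher at 10 d. PLT1 (AT3G20840) and PLT2 (AT1G51190), which set up the root stem cells downstream of auxin, had the largest changes of their group. The Ct of PLT1 was 25.7 in explants, 21.3 at 5 d and 19.7 at 10 d, a change of 4.66. The Ct of PLT2 was 26.5, 22.8 and 22.0, a change of 3.27. PLT3 (AT5G10510) had a change of 1.15. BBM (AT5G17430), known for inducing somatic embryos when overexpressed, was read at a Ct of 33.4 in explants and 31.8 at 10 d, and its change of 0.39 stayed within 2-fold. ANT, a growth regulator of lateral organs, also had a change of 0.39. BBM and ANT were each 1.11 with all plates centred together and 1.65 without centring. Of the 5 genes, 3 were higher (35.3% of all rows) and none was lower, with a median of 1.15. In tanmei the changes were 2.62 for PLT1, 3.62 for PLT2 and 2.57 for PLT3, so that higher levels of these 3 genes were measured in the non-embryogenic callus too. AT1G72570, a further gene of the family by its code, had a change of 2.82 in Col-0 and -2.94 in tanmei.

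The 3 highest changes of the family belonged to genes known from organ initiation and regeneration, and all 3 passed the filter only through the 10 d culture. ERF115 (AT5G07310), which drives divisions of root stem cells after damage, had a Ct of 40 in explants, 22.8 at 5 d and 22.9 at 10 d. Its change of 15.88 rests on an explant value at the last cycle, and was 11.91 when every Ct of 36 or above was set to 36. PUCHI (AT5G18560), a regulator of lateral root primordia and floral meristems, had a Ct of 40 in explants, 26.9 at 5 d and 23.9 at 10 d, a change of 14.79 or 10.82 with the same limit. LEP (AT5G13910), named for its effect on the leaf petiole, had a Ct of 37.3, 26.1 and 21.8, a change of 14.20, or 12.97 with the limit. These 3 genes were at or near the last cycle in explants and clearly amplified at 10 d. DRN and DRNL, which pattern the embryo and the shoot apex, had changes of 0.81 and 1.70. In tanmei, PUCHI went from a Ct of 40 to 23.3, LEP from 32.002 to 23.9 and ERF115 from 31.8 to 22.7, whereas DRNL went from 25.2 to 29.5, a change of -3.64.

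Group X of the ERF genes, which holds ERF115 and other wound responsive genes, was divided. Of its 4 genes counted, 2 were lower at 10 d, 1 was higher and 1 stayed within 2-fold, beside 28.1% lower and 35.3% higher of all rows. RRTF1 (AT4G34410), a jasmonate and wound responsive gene, had a Ct of 24.4 in explants, 40 at 5 d and 36.9 at 10 d, a change of -13.75. It passed the filter only through the explants. RAP2.6 (AT1G43160), which responds to abscisic acid, wounding and salt, had a Ct of 19.6, 28.4 and 27.7, a change of -9.43 and thus 692-fold lower. RAP2.6L (AT5G13330), which acts in shoot regeneration and tissue reunion, had a change of 0.94, and AT2G33710, of the same group by its code, had a change of 5.32. In tanmei the changes of RRTF1 and RAP2.6 were -4.78 and -3.75. WIND1 (AT1G78080), an inducer of callus at wounds, had a change of 0.83.

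Cold and stress genes were mostly lower at 10 d, and several were lower still at 5 d. CBF1 (AT4G25490), CBF2 (AT4G25470) and CBF3 (AT4G25480), tandem neighbours that switch on cold tolerance, had Ct values of 26.3, 26.2 and 28.9 in explants. At 5 d they were 33.5, 32.3 and 30.8 and at 10 d 29.6, 26.7 and 26.4. The changes at 5 d were -7.87, -6.83 and -2.57, and at 10 d -4.57, -1.76 and 1.22. These 3 sequences are close copies, and whether each primer pair reads 1 of them alone was not checked. DDF1 and DDF2, relatives tied to salt and gibberellin, had changes of -6.20 and -6.97 at 10 d. Of the 5 genes 1 was higher and 4 were lower, beside 35.3% and 28.1% of all rows and 37.1% and 33.1% of their plate, and their median was -4.57. Over those with a Ct below 35 in both columns the median was -3.17. In tanmei the changes at 10 d were -3.61, -3.51 and -2.65 for the CBF genes and -1.63 and -0.36 for DDF1 and DDF2.

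DREB2A (AT5G05410), an activator of drought and heat genes, showed the same low at 5 d, with a Ct of 21.7 in explants, 26.4 at 5 d and 21.9 at 10 d. Its change was -5.41 at 5 d and -1.45 at 10 d in Col-0, and -5.92 at 10 d in tanmei. With all plates centred together the Col-0 change of DREB2A at 10 d was -0.72. DREB2B, DREB19 and DREB2F were lower at 10 d, with changes of -2.34, -2.46 and -3.16, and DREB2C was higher with 1.41. Of these 5 genes and ABI4, 1 was higher and 4 were lower (28.1% of all rows), and their median was -1.89. AT5G18450, of the same group by its code, had a change of -3.20 in Col-0 and -12.61 in tanmei.

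Among 7 DREB genes of the second group, 6 were lower and 1 higher, and the median was -3.47. Of all rows 28.1% were lower, and of the rows of their plate 33.1%. ORA47 (AT1G74930), an activator of jasmonate synthesis, had a Ct of 23.6 in explants, 28.6 at 5 d and 27.1 at 10 d, a change of -4.74. The RAP2.1, RAP2.9 and RAP2.10 genes, of which RAP2.1 is a repressor of drought genes, had changes of -3.47, -5.24 and -4.01. DEAR3 and DREB26 had changes of -1.38 and -1.22, which were -0.12 and 0.04 without centring. CEJ1 (AT3G50260), a repressor that responds to ethylene and jasmonate, was the exception among the 7 with a change of 3.15. The codes AT1G19210 and AT5G21960, without a gene symbol in the annotation used, had changes of -8.09 and -7.70. Other codes of this group without a symbol went both ways. AT1G44830 was higher with a change of 1.17, and AT1G77640 and AT1G22810 were lower with -1.54 and -3.91. ERF022 (AT1G33760) had a Ct of 24.1 in explants, 31.6 at 5 d and 30.1 at 10 d, a change of -7.28. The related code AT1G01250 went from 19.3 to 23.3, a change of -5.26.

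**Figure D4:**
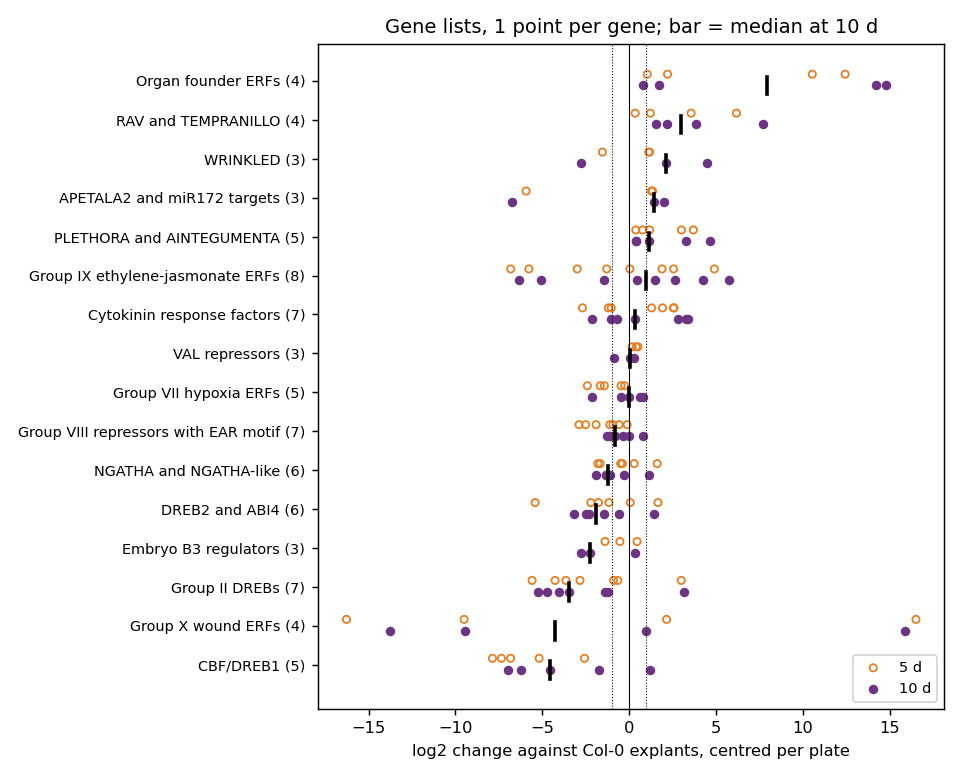
The log2 change against Col-0 explants (horizontal axis, centred per plate) is drawn for each gene of the 16 lists with at least 3 genes past the filter, filled at 10 d and open at 5 d, with a bar at the 10 d median and dotted lines at 2-fold. Medians run from 7.95 for the organ founder genes to -4.57 for the CBF/DREB1 genes. Over the genes with a Ct below 35 in both columns these 2 medians are 1.25 and -3.17. Both time points share the explant values.

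Ethylene and jasmonate genes of group IX were divided. ERF1 (AT3G23240) and ORA59 (AT1G06160), which join both hormones in defence, were higher at 10 d, with changes of 4.26 and 2.66. ERF98 (AT3G23230), a neighbour of ERF1 on the chromosome that promotes ascorbate synthesis, went from a Ct of 40 to 33.0, a change of 5.75 that was 1.78 with every Ct of 36 or above set to 36. ERF15 had a change of 1.48. On the lower side, ERF13 (AT2G44840) went from a Ct of 22.9 to 26.8, a change of -5.07, and ERF1A had a change of -1.48. ESE1 (AT3G23220), the next neighbour of ERF98, had a Ct of 34.9 in explants and 40 at 5 d and 10 d, a change of -6.37 that was -2.33 with the same limit. It passed the filter only through the explants. Of 8 genes 4 were higher and 3 lower (35.3% and 28.1% of all rows) around a median of 0.97. AT4G18450, of the same group by its code, went from a Ct of 35.8 to 26.9, a change of 7.58. It passed the filter only through the 10 d culture.

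The ERF repressors with an EAR motif, which recruit corepressors to ethylene and stress genes, showed small changes. None of 7 was higher, and ERF4, ERF8 and ERF12 were lower, with changes of -1.12, -1.08 and -1.25. Of all rows, 35.3% were higher and 28.1% lower. The changes of these 3 genes were 0.15, 0.18 and 0.01 without centring. ERF3, ERF7, ERF10 and ERF11 stayed within 2-fold, but ERF10 and ERF11 were 2.04 and 1.26 without centring. Group VII genes, whose proteins sense oxygen through their amino terminus, were likewise close to the median row. RAP2.12 was lower with a change of -2.11, and RAP2.2, RAP2.3, HRE1 and HRE2 lay between -0.46 and 0.80. At 5 d HRE2 had a change of -2.41.

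All 4 RAV genes of the list were higher at 10 d, beside 35.3% of all rows, with a median of 3.01. These proteins join an AP2 and a B3 domain and hold back growth and flowering. EDF3 (AT3G25730) had a Ct of 30.8 in explants, 23.9 at 5 d and 21.8 at 10 d, a change of 7.68. The changes of RAV1, RAV2 and TEM1 were 3.85, 2.16 and 1.52. In tanmei EDF3, RAV1 and RAV2 had changes of 2.62, 2.79 and 2.95, and TEM1 of -0.47.

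Cytokinin response factors, which act downstream of cytokinin receptors in embryos and leaves, fell into separate sets. CRF2, CRF4 and CRF5 were higher at 10 d with changes of 2.81, 3.27 and 3.39. CRF6 and CRF7 were lower with changes of -1.07 and -2.16, and CRF6 had a change of 0.19 without centring. CRF1 and CRF8 stayed within 2-fold at 0.36 and -0.69. With all plates centred together CRF1 was 1.08. Of the 7 genes 3 were higher and 2 lower, beside 35.3% and 28.1% of all rows, and their median was 0.36.

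SHN1 and SHN2, activators of wax and cutin synthesis, both had a Ct of 40 in explants and of 33.3 and 30.9 at 10 d, with changes of 5.47 and 7.79. With every Ct of 36 or above set to 36, these were 1.504 and 3.83. Both passed the filter only through the 10 d culture. WRI3 (AT1G16060) and WRI4 (AT1G79700), relatives of WRI1 that act in cutin and wax synthesis, had changes of 4.49 and 2.11, while WRI1 itself was lower with -2.77. ESE2 (AT2G25820), induced by ethylene and salt as its name says, went from 40 to 30.6, a change of 8.14 that was 4.18 with the limit of 36. ESE3 (AT5G25190) went from a Ct of 25.04 to 19.9, a change of 3.89.

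Among the genes targeted by miR172, which time the change from juvenile to flowering growth, AP2 and TOE1 were higher with changes of 1.42 and 2.03. SNZ (AT2G39250), a repressor of flowering, went from a Ct of 23.5 in explants to 28.8 at 5 d and 29.0 at 10 d, a change of -6.73. No other gene of this group could be described. Of the codes without a symbol, AT1G12890 and AT1G63040 were among the 12 highest rows with a Ct in both columns, with changes of 6.53 and 5.79.

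The tanmei series shares no sample with the Col-0 series. In tanmei, 1704 rows passed the same filter, 550 (32.3%) at least 2-fold higher at 10 d and 528 (31%) lower. Of 136 AP2/EREBP rows that passed in both genotypes, 37 were at least 2-fold higher in both and 31 lower in both. A further 7 were higher in Col-0 and lower in tanmei, and 6 were lower in Col-0 and higher in tanmei. In ABI3/VP1, 5 of 13 rows were lower in both, and 1, DPA4, was higher in Col-0 and lower in tanmei, with a change of -4.24 there. Most AP2/EREBP rows with a 2-fold change in both genotypes thus changed in the same direction. The same count was not made over all rows, so whether this is particular to the family was not tested. Explants of the genotypes differed for some of these genes. ERF022 had a Ct of 24.1 in Col-0 explants and 30.1 in tanmei explants, against 30.1 and 31.3 at 10 d.

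**Figure D5:**
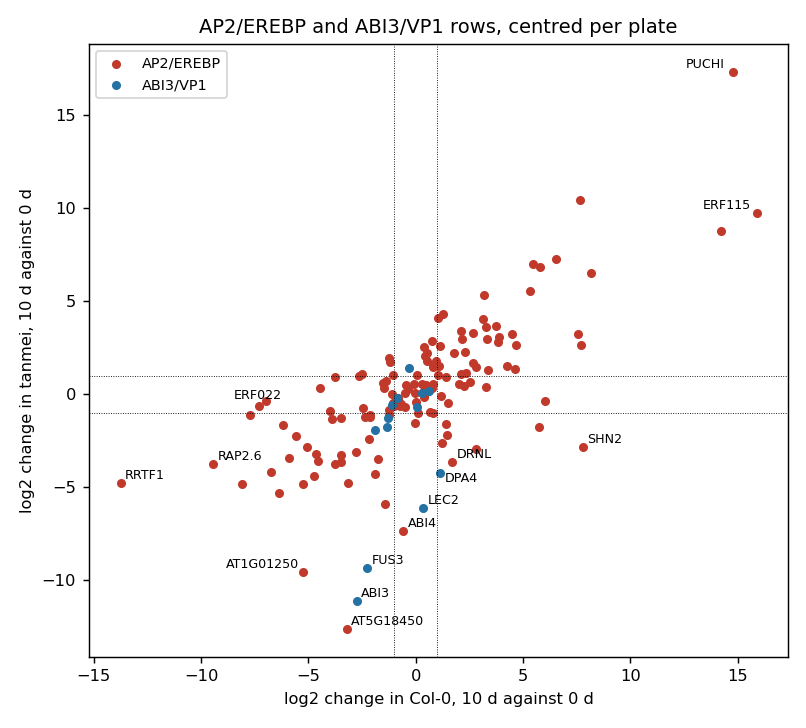
The log2 change from 0 d to 10 d in Col-0 (horizontal axis) and in tanmei (vertical axis), each centred per plate, is drawn for the AP2/EREBP and ABI3/VP1 rows that passed in both, with dotted lines at 2-fold and HRD outside the axis. ABI3, FUS3, LEC2 and ABI4 lie between -2.74 and 0.36 in Col-0 and between -11.11 and -6.09 in tanmei.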

How the data were processed

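Transcripts were measured by qRT-PCR, with SYBR Green as the dye and a separate primer pair for every TF gene. The authors averaged the Ct over 3 replicates and deposited 1 mean per gene and group, in a unit of cycles with no reference gene applied. A second deposited table holds the fold changes that the authors computed between groups; it was not used. Single replicates were not analysed here. Sequencing depth does not apply to PCR, and how precise a mean Ct is cannot be given.

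Rows, 1880 in number, were assigned by position to 5 plates with 376 each. The change of each row was centred on its plate, an empty Ct was set to 40, and rows with a Ct below 35 in at least 1 column were counted at 2-fold and 10-fold. With 1 value per group, no test was made. The calculation was checked on simulated data. Codes were checked by linking rows in order to the study's supplementary table (root mean square difference below 1 cycle). Named were the 12 largest changes in each direction and members of hand-written gene lists, counted only with a symbol in RefSeq (TAIR10.1) or the study. A few genes outside the lists, such as ESE3 and CRF10, were named beside them. Members and lists were chosen with earlier results of these data known. Alternatives were other centrings, filters, folds and values for an empty Ct. Python 3.11.15, numpy 2.4.6, pandas 2.3.3 and matplotlib 3.10.9 were used.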

Additional observations from a re-analysis of the deposited data

Results flagged for a closer look

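Of the named genes, 12 had changes of at least 2-fold in opposite directions in Col-0 and tanmei, and these differences were not tested because each group is a single mean. Differences are the Col-0 change minus the tanmei change on the log2 scale. Higher in Col-0 and lower in tanmei were SHN2 (a difference of 10.64), ERF98 (7.49), AT1G72570 (5.76), DPA4 (5.38), DRNL (5.34), CBF3 (3.87), ERF15 (3.68) and DREB2C (2.99). Lower in Col-0 and higher in tanmei were TINY2 (-3.64), DREB26 (-3.18), ERF8 (-2.09) and HRD (-35.52). SHN2 and ERF98 had a Ct of 40 in Col-0 explants, and the value of HRD rests on the single Ct of 5.36. The changes of ERF8 and TINY2 in tanmei lay at the edge of 2-fold.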

How the results depend on the processing

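No paired analysis was possible because each group holds 1 deposited mean per gene, and no replicate could be left out. Counts of rows moved by more than 1.5 times only with the fold required or, for AP2/EREBP, with the centring. At 4-fold, 260 rows were lower. At 10-fold, 280 rows were higher and 114 lower, and 23 and 26 AP2/EREBP rows. Without centring, 33 AP2/EREBP rows were lower in place of 50. Medians of families moved by more than 1.5-fold, without centring, to 1.63 in NAC, 1.65 in AP2/EREBP and 0.90 in bHLH, and turned to 0.52 in LOB and 0.40 in ABI3/VP1. With all plates centred together they were 1.10 in AP2/EREBP, -0.66 in HB, -0.018 in LOB and -0.14 in ABI3/VP1. The MADS median turned to -0.089 with a Ct below 30 in 1 column and to -0.089 with a Ct below 35 in both, and the LOB median to 2.57 with a Ct below 30. Without centring, the median of the NGATHA list turned to 0.056, of the EAR repressors to 0.47 and of group VII to 1.24, and group VII was 0.70 with all plates centred together. Of 93 genes named from the lists or the largest changes, 6 that were at least 2-fold lower changed sign without centring. They were CRF6 (0.19), ERF8 (0.18), NGA3 (0.16), ERF4 (0.15), DREB26 (0.041) and ERF12 (0.010). Sign changes of genes within 2-fold, such as ABI4 (0.68) and VAL1 (0.40), are not in this count. Without centring the other 87 genes moved by at least 1.5-fold, and all 93 did with all plates centred together. The limit of 36 cycles, chosen after seeing the data, moved 10 named genes, all with a Ct of 36 or above in 1 column. With that limit the median of the organ founder list was 6.28.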
